A study of Mus musculus with 6 samples.

Results

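Fatty acid oxidation and its transcriptional control by PPARalpha were followed in mouse liver through 34 genes, taken by name from the 16135 genes of the deposited expression table. All 34 were in the table, and all 34 passed the filter of a mean of at least 1 FPKM (FPKM are sequenced fragments scaled to the length of the gene and to the total of the library). The 3 control libraries (ACSS2-flox) were made from livers of mice whose Acss2 gene is floxed, and the other 3 (ACSS2-HKO) from livers of hepatocyte-specific Acss2 knockout mice. ACSS2 makes acetyl-CoA from acetate, a product of ethanol breakdown. Both genotypes had been given the Lieber-Decarli ethanol liquid diet over 10 days, followed by 1 binge of ethanol. No ethanol-free group was analysed here, and the labels name neither the driver of the deletion nor the strain, sex or age. They do not state that each library is a separate animal, so p-values measure the spread between these libraries, which may be partly technical.

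PPARalpha is a nuclear receptor that binds fatty acids and, with its partner RXR, switches on the genes with which the liver burns fat during fasting. A fatty acid is first joined to coenzyme A, carried into the mitochondrion as a carnitine ester, and then shortened step by step by a dehydrogenase, a hydratase, another dehydrogenase and a thiolase, which releases acetyl-CoA. Very long chains are shortened in the peroxisome, thioesterases free fatty acids from coenzyme A again, and the liver turns surplus acetyl-CoA into ketone bodies.

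The FPKM values implied between 33717125 and 39474527 fragments per library. The oxidation genes were abundant, 25 of them above the 90th percentile of the table by mean FPKM. A pair of libraries stood apart. ACSS2-flox replicate 1 held the lowest value of 52.9% of the 9818 tested genes, but of 4 of the 34 oxidation genes. ACSS2-HKO replicate 3 had the highest summed level of the acute phase list (61200 FPKM, against 18200 to 21680 in the other ACSS2-HKO libraries and 11930 to 13510 in ACSS2-flox). Its neutrophil markers summed to 356 FPKM (39.0 to 54.6 and 8.04 to 17.7 in the same groups), with Mpo and Elane below 1 FPKM everywhere, and its macrophage markers to 1722 FPKM (697 to 750 and 375 to 586). The 9 hepatocyte markers were all expressed and summed to 47800 FPKM in that library, 51230 and 54210 FPKM in the other ACSS2-HKO libraries and 54270 to 83160 FPKM in ACSS2-flox. The targeted gene Acss2 (chromosome 2, 155517948 to 155585724) read 87.8, 61.5 and 58.5 FPKM for ACSS2-flox against 50.6, 38.4 and 45.7 for ACSS2-HKO. The groups did not overlap, and the log2 fold change was -0.60 ± 0.21 (limma adjusted p = 0.637). The value covers the whole gene and all liver cells.

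Most oxidation genes read slightly lower in ACSS2-HKO, and the lowest values lay in ACSS2-HKO replicate 3. Log2 fold changes (ACSS2-HKO minus ACSS2-flox, on log2(FPKM + 1), ± standard error) were below 0 for 28 of the 34 genes, against 34% of all tested genes. Their median was -0.22, against 0.10 for all tested genes, and single genes ran from -0.82 to 0.41. Neither limma nor voom, its weighting for counts, on fragment counts recovered from the FPKM called any gene: no member passed the threshold of 0.05 after Benjamini-Hochberg adjustment in limma, and neither did any of the 9818 tested genes (0% in either direction). The smallest adjusted p was 0.637 among the members and 0.452 in the table. At an unadjusted p under 0.05 limma gave 3 members lower (Acot4, Acsl1 and Acaa1b), where 1.5% of all tested genes were lower, and 0 members higher, where 6.09% were higher; voom gave the same counts of 3 and 0. The groups did not overlap for 3 members, all lower in ACSS2-HKO (Acsl1, Pex11a and Acot4), where 2.94% of all tested genes were lower without overlap and 12.5% higher. An exact permutation test of 3 libraries against 3 cannot go below p = 0.1, and each of these genes had that value.

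Much of the list's position rested on ACSS2-HKO replicate 3 and ACSS2-flox replicate 1. Relative to the ACSS2-flox mean, the median member stood at 0.11, -0.076 and -0.0036 in ACSS2-flox replicates 1, 2 and 3. In ACSS2-HKO replicates 1, 2 and 3 it stood at 0.10, -0.18 and -0.53. The median of all tested genes stood at -0.178, 0.054 and 0.121 in ACSS2-flox replicates 1, 2 and 3. In the same order it was 0.108, 0.117 and 0.059 in ACSS2-HKO. The member median of ACSS2-HKO replicate 1 lay among those of the controls, with 12 of the 34 members below the control mean, as were 3272 of the 9818 tested genes. In replicate 3, 31 of the 34 members were below that mean, as were 4273 of the 9818 tested genes. That library held the lowest of the 6 values for 25 members, against 17.2% of all tested genes, and the highest for 0, against 21.3%. ACSS2-HKO replicate 1 was highest of its group for 30 members (32% of all tested genes). Of all 6 libraries it was highest for 12 members, or 35.3%, against 14.2% of all tested genes. Replicate 1 was highest and replicate 3 lowest of that group at once for 26 members, or 76.5%, against 19.6% of all tested genes. Without ACSS2-HKO replicate 3 the median was -0.048, against 0.11 for all tested genes, and 21 members were below 0 (28.9% of all tested genes). At an unadjusted p under 0.05 by limma, 0 members were then lower and 1, Ehhadh, higher (0.754% and 2.87% of all tested genes). Without ACSS2-HKO replicate 1 the median was -0.36, against 0.091 for all tested genes. At the same unadjusted p 6 members were then lower (1.44% of all tested genes), and without ACSS2-flox replicate 3 only Acot4 was (1.48%). Without ACSS2-flox replicate 1 the median was -0.185, against 0.013 for all tested genes, and 28 members were below 0 (47.8% of all tested genes). Without both distant libraries (ACSS2-flox replicate 1 and ACSS2-HKO replicate 3) the median was -0.014, against 0.031, and 18 members were below 0 (44.8% of all tested genes). Against the median of all tested genes the members stood at -0.32 with all libraries and -0.16 without ACSS2-HKO replicate 3. The same difference was -0.198 without ACSS2-flox replicate 1 and -0.045 without both. The part that the acute phase signal and the myeloid markers of replicate 3 have in these values was not tested, and in bulk liver fewer hepatocytes and less of a transcript per hepatocyte cannot be told apart.

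**Figure D1:**
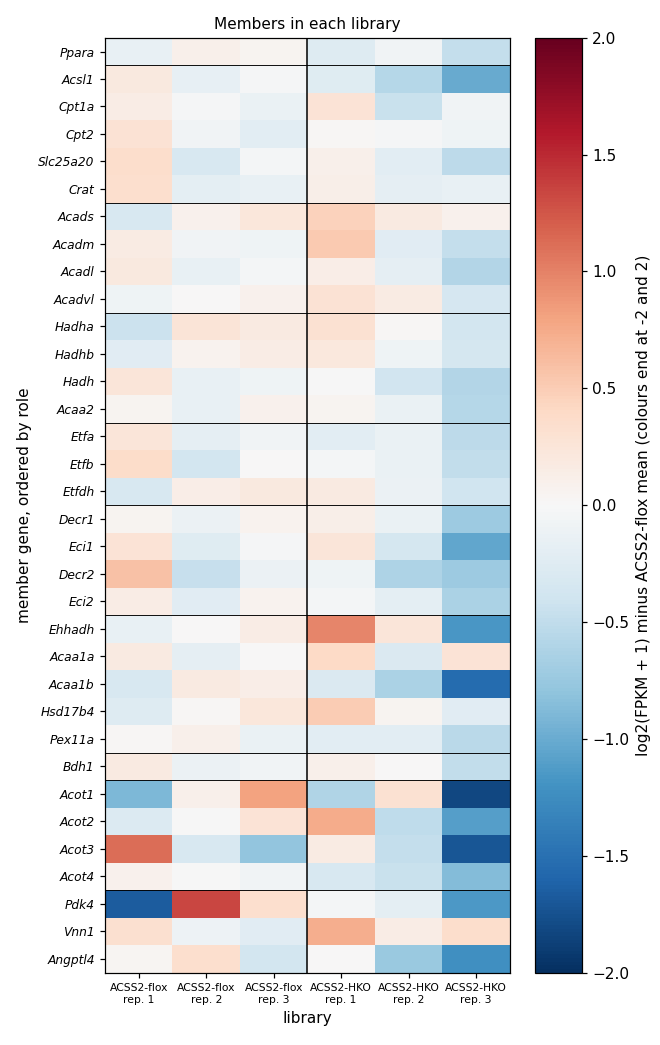
Each cell is log2(FPKM + 1) of 1 gene (rows, ordered by role) in 1 library (columns) minus the mean of the 3 ACSS2-flox libraries, blue below and red above that mean. The column of ACSS2-HKO replicate 3 is mostly blue, with 31 of 34 genes below the control mean, while that of replicate 1 holds 12 such genes. Of the 9818 tested genes 4273 and 3272 were below it in replicates 3 and 1.

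Scaling moved the whole list. ACSS2-flox replicate 1 had a median-ratio scaling factor of 0.783 and the other libraries 1 to 1.07. With median-ratio scaling, which divides each library by the median ratio of its genes to their average over libraries, the median of all tested genes shifted from 0.10 to -0.038, 55.9% of tested genes were then below 0, and the members' median was -0.39 with 32 of 34 below 0. Against the median of all tested genes the members stood at -0.32 as deposited and -0.35 after that scaling. For the 5222 tested genes of at least 3000 bases the median difference of that library from the mean of the other controls was -0.435 on the log2 scale, and for the 11 members of that length it was 0.221, with 4 of them below 0 (Pdk4, Hadhb, Ppara and Ehhadh). Over the 34 members the Spearman correlation of gene length with this difference was -0.10, and over all tested genes -0.42, both descriptions across genes of the same libraries.

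Promoters were searched for the sequence that PPARalpha and RXR bind, a direct repeat of AGGTCA with any 1 base between the copies, sought on both strands in the 250 bases before each start. RefSeq promoter entries (build GRCm38.p6) existed for 28 of the 34 members, 31 entries in all. None held the repeat with 0 or 1 mismatches, which 0.484% of all 32851 promoters did, a share too low for 31 entries to differ from. With up to 2 mismatches it was found in 2 member promoters (6.45%, against 3.24% of all promoters and 2.74% of those of tested genes), those of Acot4 and Etfa, and with up to 3 in 22.6%, against 21.3% of all and 18.6% of the promoters of tested genes. A single AGGTCA, on either strand, lay in 4 of the 31 entries (12.9%, against 14.0% of all and 11.7% of those of tested genes), those of Acot4, Acadm, Cpt1a and Acadvl. The 2 promoters with the closest matches are shown. Capitals mark the match, which in both is read on the opposite strand. The sequences run 5′ to 3′ along the gene and end at the base before its start.
Acot4, chr12:84038129-84038378, plus strand: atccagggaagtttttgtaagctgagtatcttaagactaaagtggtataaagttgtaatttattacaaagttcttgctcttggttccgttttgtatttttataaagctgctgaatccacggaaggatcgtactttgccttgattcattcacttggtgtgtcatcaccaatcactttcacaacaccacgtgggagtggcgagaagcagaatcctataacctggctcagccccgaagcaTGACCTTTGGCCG
Etfa, chr9:55512244-55512493, minus strand: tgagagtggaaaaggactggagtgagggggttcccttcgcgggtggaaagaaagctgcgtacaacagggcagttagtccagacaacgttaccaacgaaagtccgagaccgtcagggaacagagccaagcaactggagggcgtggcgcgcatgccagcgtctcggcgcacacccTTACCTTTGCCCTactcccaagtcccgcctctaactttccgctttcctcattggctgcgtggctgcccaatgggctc
The Acot4 match is the last 13 bases before the start and that of Etfa ends 64 bases before it. A match of letters is a description and shows no binding, and PPARalpha elements farther away lie outside this window.

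Ppara itself, the receptor gene (chromosome 15, 85734983 to 85802819), read 21.8, 26.2 and 25.3 FPKM for ACSS2-flox against 20.2, 23.0 and 17.1 for ACSS2-HKO. ACSS2-HKO replicates 1 and 3 were below each control, and replicate 2 lay among them. Its log2 fold change was -0.27 ± 0.18 (limma adjusted p = 0.732, exact permutation p = 0.2), and it stayed below 0 under each of the 18 alternatives tried, from -0.44 to -0.17.

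Among the genes that activate fatty acids and pass them into the mitochondrion, Acsl1 differed most between the genotypes. Acsl1 (chromosome 8, 46471037 to 46536051) encodes the main acyl-CoA synthetase of liver. It read 104, 80.7 and 88.8 FPKM for ACSS2-flox against 76.2, 60.8 and 44.3 for ACSS2-HKO, so that the highest ACSS2-HKO library lay below the lowest control. Group means were 91.2 ± 11.9 against 60.5 ± 15.9 FPKM (SD, n = 3), or 0.663 times the control. The log2 fold change was -0.61 ± 0.23 (limma adjusted p = 0.637), and -0.41 without ACSS2-HKO replicate 3. The carnitine steps differed less. Cpt1a, the outer-membrane carnitine palmitoyltransferase that sets the pace of entry (chromosome 19, 3322334 to 3385733), read 92.8, 82.5 and 75.8 FPKM for ACSS2-flox against 101, 60.7 and 79.8 for ACSS2-HKO. Its groups overlapped throughout, with both the highest and the lowest value in ACSS2-HKO (-0.082 ± 0.22). Cpt2, the inner-membrane partner, read 61.6, 47.4 and 42.9 FPKM for ACSS2-flox against 51.1, 49.3 and 47.2 for ACSS2-HKO, which is a narrow band apart from ACSS2-flox replicate 1 (-0.025 ± 0.19). The carrier gene Slc25a20, whose product exchanges acylcarnitine for carnitine, had a log2 fold change of -0.22 ± 0.24 (-0.062 without ACSS2-HKO replicate 3), and Crat, which moves acetyl groups onto carnitine, one of -0.066 ± 0.20. Both were highest in ACSS2-flox replicate 1, at 85.1 and 17.8 FPKM.

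**Figure D2:**
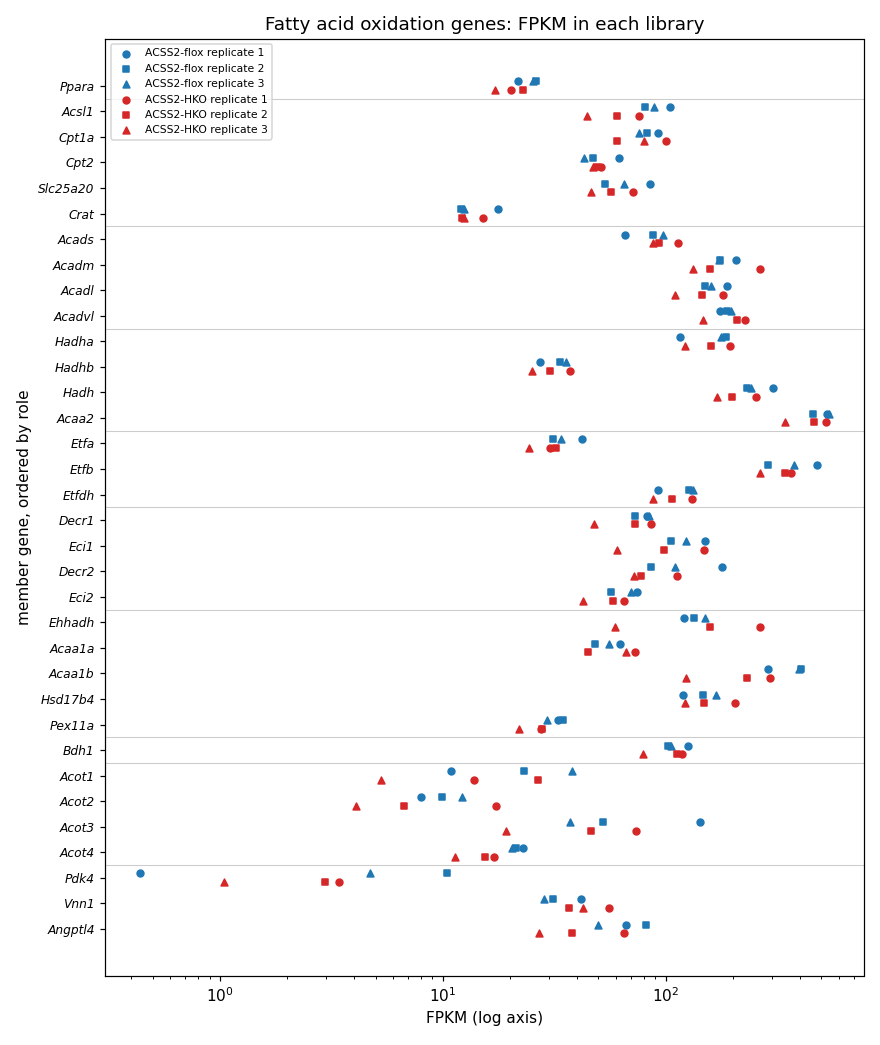
FPKM of each gene (log axis) in the 3 ACSS2-flox libraries (blue) and the 3 ACSS2-HKO libraries (red), with circles, squares and triangles for replicates 1, 2 and 3 and lines between roles. Mean levels run from 3.83 FPKM for Pdk4 to 477 FPKM for Acaa2, and for most genes the red triangle, ACSS2-HKO replicate 3, lies at the left.

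Mitochondrial acyl-CoA dehydrogenases, which open each round of oxidation on chains of different length, showed no common direction. Acads (short chains) read 65.7, 87.6 and 97.1 FPKM for ACSS2-flox against 114, 93.2 and 87.6 for ACSS2-HKO, with the lowest value in ACSS2-flox replicate 1, and its log2 fold change of 0.24 ± 0.21 was above 0 under each alternative, down to 0.081 without ACSS2-flox replicate 1 and 0.037 with a correction for gene length besides. Acadm (medium chains) read 206, 175 and 174 FPKM for ACSS2-flox against 266, 158 and 133 for ACSS2-HKO. ACSS2-HKO held both its highest and its lowest library, and the group means of 185 and 185 FPKM were nearly equal (-0.057 ± 0.27). Acadl (long chains) and Acadvl (very long chains) had log2 fold changes of -0.21 ± 0.23 and 0.039 ± 0.21, and both were lowest in ACSS2-HKO replicate 3, at 110.1 and 148 FPKM. Without it the values were -0.021 and 0.23, and with median-ratio scaling Acadvl was -0.13.

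The later steps of the cycle were lower by sign in 4 of 4 genes, with log2 fold changes of -0.33 to -0.0097 and overlapping groups. Hadha and Hadhb encode the alpha and beta subunits of the trifunctional protein and start from neighbouring sites on opposite strands of chromosome 5 (30118304 to 30155162 and 30155248 to 30184593). Hadha read 116, 186 and 178 FPKM for ACSS2-flox against 194, 159.6 and 122 for ACSS2-HKO and Hadhb 27.4, 33.7 and 35.9 FPKM for ACSS2-flox against 37.2, 30.2 and 25.1 for ACSS2-HKO. The pair varied together from library to library, low in ACSS2-flox replicate 1 and ACSS2-HKO replicate 3 and high in ACSS2-HKO replicate 1. Hadh, the dehydrogenase for short hydroxyacyl chains, read 303, 232 and 242 FPKM for ACSS2-flox against 255, 198 and 170.5 for ACSS2-HKO (-0.33 ± 0.22). Acaa2, the mitochondrial thiolase and the most abundant member, read 529, 457 and 541 FPKM for ACSS2-flox against 527, 462 and 343 for ACSS2-HKO. Its ACSS2-HKO replicates 1 and 2 lay within the control range and replicate 3 below it (-0.22 ± 0.22). Without replicate 3 the 4 genes Hadha, Hadhb, Hadh and Acaa2 stood at 0.17, 0.060, -0.19 and -0.042.

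Electrons from the dehydrogenases pass through the electron transfer flavoprotein, whose subunits are encoded by Etfa and Etfb, to its membrane oxidoreductase, encoded by Etfdh. All 3 were below 0 by sign. Etfa read 42.1, 31.4 and 33.8 FPKM for ACSS2-flox against 30.4, 32.1 and 24.5 for ACSS2-HKO, with ACSS2-HKO replicate 2 inside the control range (-0.29 ± 0.19). Etfb read 480.1, 289 and 377 FPKM for ACSS2-flox against 365, 342 and 266 for ACSS2-HKO and Etfdh 92.6, 127 and 133 FPKM for ACSS2-flox against 131, 107 and 88.1 for ACSS2-HKO, with log2 fold changes of -0.22 ± 0.24 and -0.11 ± 0.22. Among all 6 libraries ACSS2-flox replicate 1 was the highest library for Etfa and Etfb and the lowest control for Etfdh, and without it their log2 fold changes were -0.17, -0.038 and -0.27. The level of Etfa is not comparable with that of its partner as deposited. The values imply a length of 9685 bases for Etfa, whereas its longest coding transcript in the GENCODE M21 annotation has 1392 bases. With the transcript's length its control mean of 35.8 FPKM would read 249 FPKM, beside 382 FPKM for Etfb. A like gap held for Ppara (10433 against 3413 bases) and Hadhb (4608 against 2048 bases), while 27 of the 34 members had lengths within 1.5 times of that transcript. Of the 50-base windows of the Hadhb and Etfb transcripts 62.4% and 67.3% also occur in genes outside the table, so their levels depend on how such fragments were counted. The length divides all libraries alike and leaves comparisons between them as they are.

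Unsaturated chains need extra enzymes, the dienoyl-CoA reductases Decr1 (mitochondrial) and Decr2 (peroxisomal) and the enoyl-CoA isomerases Eci1 and Eci2, and all 4 genes were below 0 with a median of -0.34. Decr2 read 179, 86.0 and 109.9 FPKM for ACSS2-flox against 112, 77.3 and 71.9 for ACSS2-HKO. ACSS2-flox replicate 1 stood far above the rest, and without it the log2 fold change was -0.18 in place of -0.48 ± 0.30. Eci1 read 151, 105 and 123 FPKM for ACSS2-flox against 148, 98.1 and 60.4 for ACSS2-HKO, with ACSS2-HKO replicate 1 at the level of the highest control and replicate 3 far below (-0.38 ± 0.32, and -0.054 without replicate 3). Decr1 and Eci2 had log2 fold changes of -0.25 ± 0.23 and -0.29 ± 0.21, and both were lowest in ACSS2-HKO replicate 3, at 47.8 and 42.8 FPKM. Without that library they were -0.011 and -0.12.

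**Figure D3:**
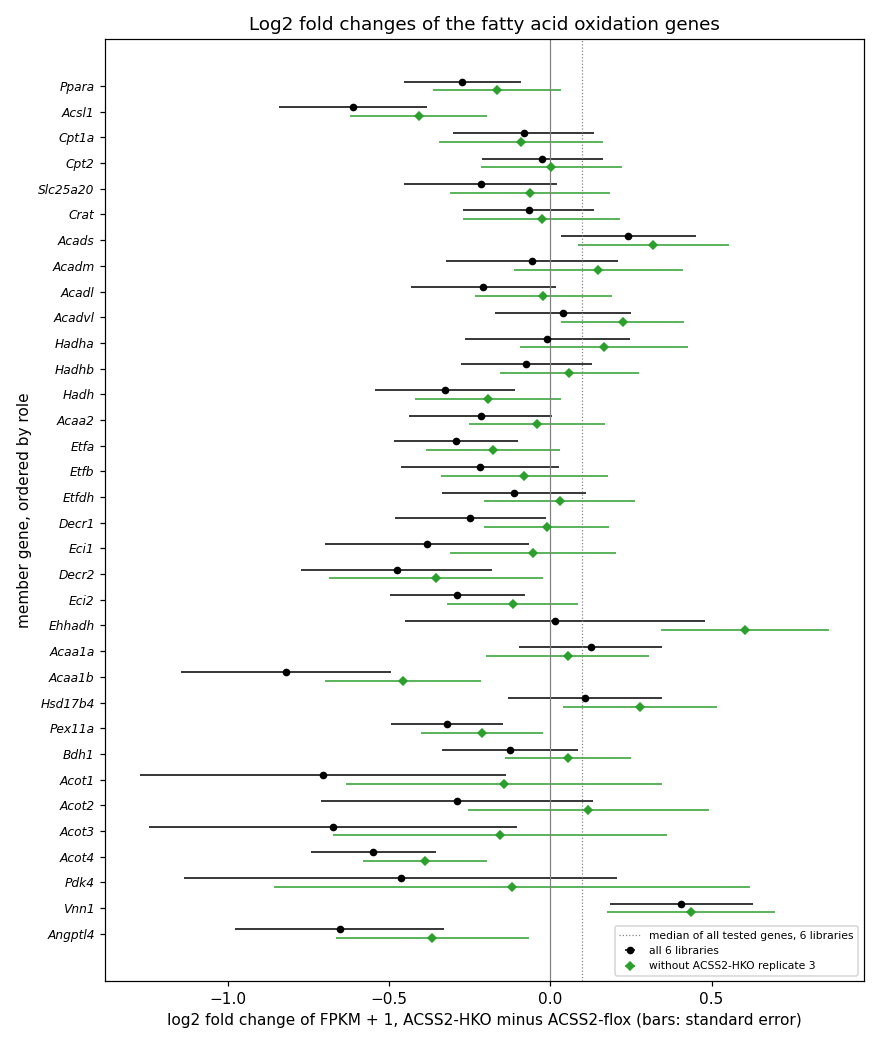
Log2 fold change of each gene (x axis, ACSS2-HKO minus ACSS2-flox; bars are standard errors) with all 6 libraries (black) and without ACSS2-HKO replicate 3 (green); the dotted line is the median of all tested genes, 0.10. With all libraries 28 points lie left of 0, and without that library 21 do.

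Of the 5 genes grouped here as peroxisomal, 2 were below 0 as deposited and 5 with median-ratio scaling. Some members listed under other roles are peroxisomal too, among them Decr2, Acot3 and Acot4, each below 0 as deposited (-0.48, -0.67 and -0.55). Acaa1b, a peroxisomal thiolase (chromosome 9, 119148023 to 119157093), had the most negative log2 fold change of the 34. It read 288, 407 and 396 FPKM for ACSS2-flox against 294, 232 and 123 for ACSS2-HKO, means of 364 ± 65.6 against 217 ± 86.7 FPKM (SD, n = 3). ACSS2-HKO replicate 1 lay just above the lowest control, so the groups overlapped, and the change was -0.82 ± 0.33 (limma adjusted p = 0.637), or -0.46 without ACSS2-HKO replicate 3. Its copy Acaa1a, chromosome 9, 119339676 to 119350299, read 62.2, 48.2 and 55.6 FPKM for ACSS2-flox against 72.6, 45.0 and 66.4 for ACSS2-HKO (0.12 ± 0.22), and unlike most members was not lowest in ACSS2-HKO replicate 3. Of the 50-base windows of the Acaa1b transcript 35.5% also occur in Acaa1a, so the division of fragments between the copies is uncertain. Their summed level was 419 ± 59.5 and 278 ± 88.8 FPKM (SD, n = 3), or 0.663 times the control.

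Ehhadh, the gene of a peroxisomal bifunctional enzyme and a classic PPARalpha target, spread widely within ACSS2-HKO. It read 121, 135 and 149.6 FPKM for ACSS2-flox against 264, 159 and 59.3 for ACSS2-HKO, a 4.46-fold range in ACSS2-HKO against 1.24-fold in the controls. Replicates 1 and 2 lay above each control and replicate 3 below each, so the group difference was 0.014 ± 0.47 with all libraries and 0.60 without replicate 3. Its sign also turned with median-ratio scaling (-0.155). Hsd17b4, which encodes the other bifunctional enzyme, read 120.3, 147 and 169 FPKM for ACSS2-flox against 204, 149 and 122 for ACSS2-HKO. It too was highest in ACSS2-HKO replicate 1, but replicates 2 and 3 lay within the control range (0.11 ± 0.24). Pex11a, which encodes a protein of peroxisome division (chromosome 7, 79735957 to 79743131), read 33.0, 34.6 and 29.5 FPKM for ACSS2-flox against 27.7, 27.8 and 22.0 for ACSS2-HKO. Here the groups did not overlap (-0.32 ± 0.18, limma adjusted p = 0.682), and the change was -0.21 without ACSS2-HKO replicate 3.

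Ketone body interconversion was represented by Bdh1, the mitochondrial 3-hydroxybutyrate dehydrogenase. It read 126, 103 and 106 FPKM for ACSS2-flox against 119, 112 and 79.1 for ACSS2-HKO, with ACSS2-HKO replicates 1 and 2 within the control range and replicate 3 below it (-0.12 ± 0.21, and 0.055 without replicate 3).

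Acyl-CoA thioesterases had the lowest median of the roles with at least 3 genes, -0.61, with 4 of 4 below 0. The 4 genes belong to 1 cluster on chromosome 12, Acot2 (83987861 to 83993873), Acot1 (84009490 to 84018371), Acot4 (84038379 to 84048601) and Acot3 (84052144 to 84060402). Acot4, a peroxisomal enzyme, had the smallest p of the members. It read 22.9, 21.3 and 20.5 FPKM for ACSS2-flox against 17.0, 15.5 and 11.3 for ACSS2-HKO, means of 21.6 ± 1.19 against 14.6 ± 2.93 FPKM (SD, n = 3). The controls agreed within 1.11-fold and each ACSS2-HKO library lay below them. The log2 fold change was -0.55 ± 0.19 (limma adjusted p = 0.637, exact permutation p = 0.1), and -0.39 without ACSS2-HKO replicate 3. The groups overlapped for the other 3. Acot1, the cytosolic enzyme, read 10.9, 23.1 and 37.9 FPKM for ACSS2-flox against 13.8, 26.7 and 5.31 for ACSS2-HKO, and Acot2, the mitochondrial one, 8.03, 9.91 and 12.3 FPKM for ACSS2-flox against 17.3, 6.70 and 4.09 for ACSS2-HKO. Acot3, also peroxisomal, read 142, 52.2 and 37.3 FPKM for ACSS2-flox against 73.6, 46.4 and 19.3 for ACSS2-HKO. In the controls the library with the highest Acot3 had the lowest Acot1, whereas in ACSS2-HKO replicate 3 each of the 4 was at its lowest. The log2 fold changes of Acot1, Acot2 and Acot3 were -0.70 ± 0.57, -0.29 ± 0.42 and -0.67 ± 0.57. Without ACSS2-HKO replicate 3 they were -0.14, 0.12 and -0.16. Acot1 was -1.21 without ACSS2-HKO replicate 2, and Acot3 was -0.12 without ACSS2-flox replicate 1. Of the 50-base windows of the Acot1 transcript 33.6% also occur in other genes (23.7% in Acot2). For Acot2 the share was 27.7% and for Acot3 19.5% (6.1% in Acot5). The values of these genes therefore depend on how the fragments were divided. The 4 genes together summed to 133 ± 44.3 FPKM in the controls and 85.7 ± 41.7 FPKM in ACSS2-HKO (SD, n = 3).

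**Figure D4:**
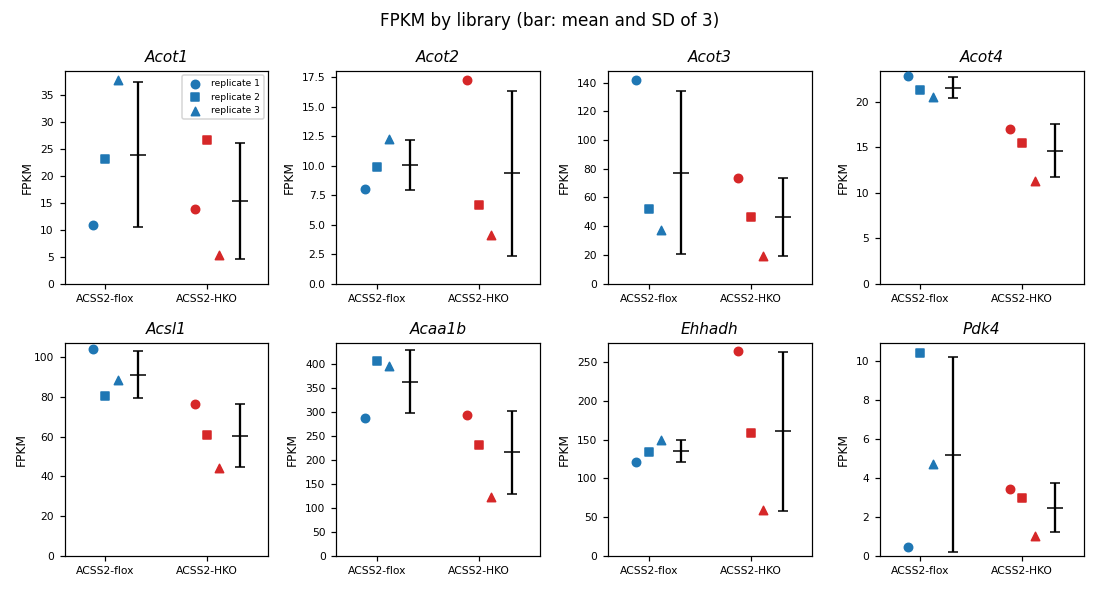
FPKM (linear axes from 0) of 8 genes in the ACSS2-flox (blue) and ACSS2-HKO (red) libraries, with circles, squares and triangles for replicates 1, 2 and 3 and the mean with its SD in black. Acot4 and Acsl1 show no overlap between groups, while the groups overlap for the other 6.

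The remaining PPARalpha-responsive genes disagreed. Pdk4, the kinase that shuts pyruvate dehydrogenase when fat is burned (chromosome 6, 5483351 to 5496309), was the rarest member. It read 0.438, 10.4 and 4.72 FPKM for ACSS2-flox against 3.42, 2.97 and 1.04 for ACSS2-HKO, from 51 fragments in ACSS2-flox replicate 1 to 1339 in replicate 2. The 23.8-fold range among the controls exceeded the ratio of the means (0.477), and the log2 fold change was -0.46 ± 0.67, or -1.29 without ACSS2-flox replicate 1 and 0.20 without ACSS2-flox replicate 2. Angptl4, which encodes a secreted inhibitor of lipoprotein lipase, read 66.3, 81.4 and 49.7 FPKM for ACSS2-flox against 65.1, 38.2 and 27.0 for ACSS2-HKO. Its ACSS2-HKO replicate 1 lay within the control range and the other 2 lay below each control (-0.65 ± 0.32, limma adjusted p = 0.670, and -0.36 without ACSS2-HKO replicate 3). Vnn1, which encodes the pantetheinase vanin 1, had the opposite sign and read 41.8, 31.2 and 28.4 FPKM for ACSS2-flox against 55.7, 37.0 and 42.7 for ACSS2-HKO. Only the highest control, replicate 1, overlapped ACSS2-HKO (0.41 ± 0.22, limma adjusted p = 0.682), and the value was above 0 under each of the 18 alternatives, as it was for Acads alone among the other members.

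Of 67 further genes grouped here with fatty acid oxidation and PPARalpha signalling, 63 passed the filter. The list is broad, and the place of each gene in the pathway, such as that of Tcim, was not tested. By limma 0 changed after adjustment. Of the 63, 35 were below 0 (55.6%, against 34% of all tested genes). Their median was -0.074, against 0.10 for all tested genes. At an unadjusted p under 0.05, 3 were lower and 2 higher (1.5% and 6.09% of all tested genes), and the groups did not overlap for 5 lower and 7 higher genes (2.94% and 12.5%). Among those with the smallest p, Cd36, a fatty acid transporter that macrophages and endothelial cells also express, read 23.0, 29.2 and 32.7 FPKM for ACSS2-flox against 74.3, 55.2 and 53.4 for ACSS2-HKO. ACSS2-HKO lay above each control (1.08 ± 0.21, limma adjusted p = 0.452). The summed macrophage markers were 375 to 586 FPKM in the controls and 697 to 1722 FPKM in ACSS2-HKO, the endothelial ones 34.9 to 169 and 115 to 134 FPKM, and their part in Cd36 was not tested. Also above 0 were the branched-chain acyl-CoA oxidase gene Acox2 (0.74 ± 0.30) and the lipoprotein lipase gene Lpl (0.94 ± 0.43, and 0.37 without ACSS2-HKO replicate 3). Below 0 were Tcim (-0.92 ± 0.24), the peroxisomal transporter gene Abcd3 (-0.51 ± 0.21), the fatty acid binding protein gene Fabp1 (-0.95 ± 0.40, and -0.35 without both distant libraries) and the acyl-CoA synthetase gene Slc27a2 (-0.53 ± 0.24). Fabp1 read 15503, 8121 and 10428 FPKM for ACSS2-flox against 6375, 8169 and 3463 for ACSS2-HKO, lowest in ACSS2-HKO replicate 3 and highest in ACSS2-flox replicate 1. The median of these 63 genes lay within 0.046 of that of all tested genes in the controls and ACSS2-HKO replicate 1. In ACSS2-HKO replicates 2 and 3 it differed from it by -0.13 and -0.28, where the 34 members differed by -0.295 and -0.59.

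**Figure D5:**
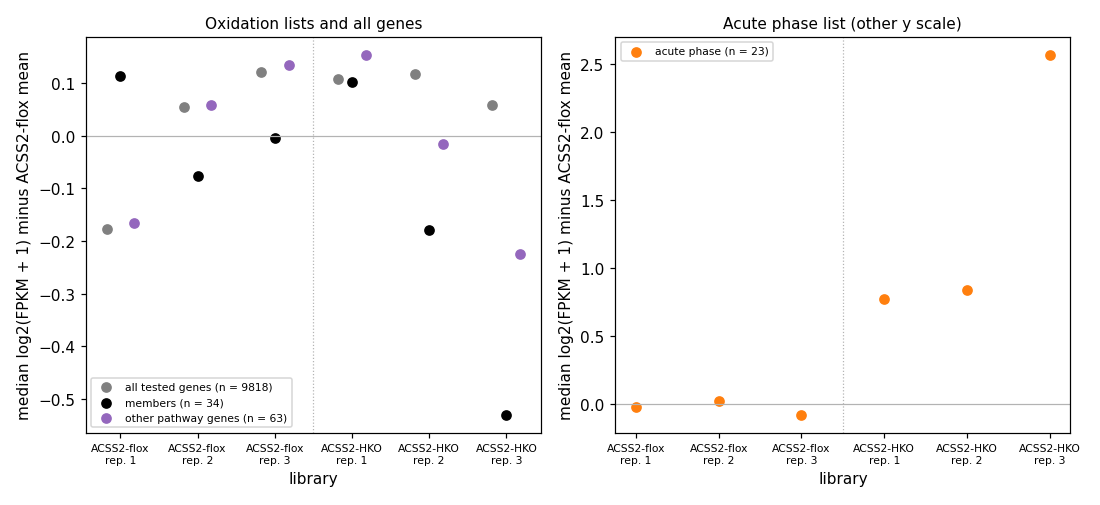
Left, the median of log2(FPKM + 1) relative to the ACSS2-flox mean for all tested genes (grey), the 34 members (black) and the 63 further pathway genes (purple) in each library; right, the same for 23 acute phase genes on another scale. The members are lowest (-0.53) and the acute phase genes highest (2.57) in ACSS2-HKO replicate 3.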

How the data were processed

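Whole-liver RNA had been sequenced from 3 ACSS2-flox and 3 ACSS2-HKO libraries, prepared with a VAHTS Universal V6 kit according to the labels. The authors deposited 1 table of FPKM values. The submitters' processing notes name mm10 and DESeq2 without a role; the aligner, counter and annotation were not given in the sources used here. Whole fragments, totals and gene lengths were recovered from the FPKM steps for 16135 of 16135 genes (within 0.01 of a whole number), and 99.2% to 99.4% of each total lay in these genes.

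Log2(FPKM + 1) was taken for the 9818 genes whose mean reached 1 FPKM and fitted by limma 3.58.1 in R 4.3.3 (eBayes with trend, two-sided, Benjamini-Hochberg over all tested genes, threshold 0.05). The pseudocount of 1 shrinks the changes of low genes. Single genes also had a two-sided exact permutation test over the 20 arrangements. The fit and the recovery were tested on simulated data in which no single library departed from its group. That test does not cover the departures of ACSS2-flox replicate 1 and ACSS2-HKO replicate 3. The members, lists and tests were chosen with earlier results of these data known. All 34 members are named, with Acss2 and the 4 further pathway genes of smallest p per direction, of which 1 is not reported here. The alternatives were pseudocounts of 0.1 and 5, no filter or 5 FPKM, median-ratio and trimmed-mean scaling, no trend, a loess correction for length (span 0.5), voom on recovered fragments, the replicate number as a block, and libraries left out; the length correction without ACSS2-flox replicate 1 was chosen after seeing the data. Coordinates and transcripts are from GENCODE M21 (GRCm38), promoters from RefSeq.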

Additional observations from a re-analysis of the deposited data

How the results depend on the processing

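No member passed the adjusted threshold in limma under any of the 18 alternatives. The log2 fold change stayed below 0 in all of them for 12 members (Ppara, Acsl1, Acaa1b, Pex11a, Acaa2, Hadh, Etfa, Decr2, Eci2, Acot1, Acot4 and Angptl4) and above 0 for 2 (Acads and Vnn1), while 20 took both signs; the cause was not tested. Pdk4 did not reach the filter of 5 FPKM. With the length correction and no ACSS2-flox replicate 1 the log2 fold changes that turned were Cpt1a 0.017, Cpt2 0.089, Crat 0.12, Ehhadh -0.083, Hsd17b4 -0.048 and Acadvl -0.042. With the length correction alone those that turned were Ehhadh -0.099 and Acadvl -0.047. With median-ratio scaling those that turned were Ehhadh -0.155, Acaa1a -0.043, Hsd17b4 -0.062 and Acadvl -0.13. With trimmed means of M-values those that turned were Ehhadh -0.16, Acaa1a -0.049, Hsd17b4 -0.068 and Acadvl -0.14. Without both distant libraries those that turned were Cpt2 0.15, Crat 0.14, Slc25a20 0.11, Acadm 0.23, Acadl 0.073, Etfb 0.10, Decr1 0.013, Eci1 0.079, Bdh1 0.15 and Acot3 0.40. With single libraries left out, those that turned ran as follows: Cpt1a -0.26 to 0.10, Cpt2 -0.13 to 0.12, Crat -0.16 to 0.10, Ehhadh -0.46 to 0.60, Acaa1a -0.0098 to 0.33, Hsd17b4 -0.089 to 0.28, Hadha -0.23 to 0.17, Hadhb -0.22 to 0.059, Acadm -0.35 to 0.15, Acadvl -0.086 to 0.23, Etfdh -0.27 to 0.029, Bdh1 -0.23 to 0.055, Pdk4 -1.29 to 0.20 and Acot2 -0.81 to 0.12. At an unadjusted p under 0.05, 5 members were lower with median-ratio scaling (3.53% of all tested genes), and 1 was higher with the length correction and no ACSS2-flox replicate 1 (4.86%), and also without both distant libraries (5.37%), where 18 members were below 0. Of the further pathway genes 7 were lower and 1 higher with the length correction (3.85% and 4.18% of all tested genes). The counts were the same with that correction and no ACSS2-flox replicate 1 (5.15% and 4.86%). With median-ratio scaling 5 were lower and 1 higher (3.53% and 3.23%), and with trimmed means likewise (3.6% and 3.19%). Without both distant libraries 6 were lower and 3 higher (3.78% and 5.37%). Leaving out 1 library gave 0 to 6 members lower and 0 to 1 higher, and 2 to 6 further genes lower and 1 to 4 higher. Of all tested genes 0.754% to 4.69% were then lower and 2.87% to 5.9% higher. Between 0 and 3 genes were called over the whole table (3 without ACSS2-HKO replicate 2). No pairing of the samples by replicate number was assumed. Same-numbered libraries correlated at 0.013, 0.003 and -0.063 in their deviations from the group means. With 3 libraries per group these values cannot show whether the samples pair. With the replicate number as a block 4 genes were called over the whole table, none a member. By limma 5 members were then lower at an unadjusted p under 0.05 (1.75% of all tested genes). No library correlated best with its own number. Depth limits Pdk4, with 51 fragments in ACSS2-flox replicate 1.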

Other observations

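Several textbook PPARalpha targets among the further pathway genes fell outside the rule for naming and were chosen after their values were seen. Cyp4a14 and Cyp4a10, fatty acid omega-hydroxylase genes that are near copies of related family members, had wide ranges. Cyp4a14 read 245, 493 and 419 FPKM for ACSS2-flox against 982, 577 and 51.4 for ACSS2-HKO, and Cyp4a10 read 307, 451 and 301 FPKM for ACSS2-flox against 787, 370.0 and 50.2 for ACSS2-HKO. Both were highest of all libraries in ACSS2-HKO replicate 1 and lowest in replicate 3, as Ehhadh was. The log2 fold changes of Cyp4a14 and Cyp4a10 were -0.26 ± 0.94 and -0.50 ± 0.84, with limma adjusted p of 0.956 and 0.909. They turned to 1.022 and 0.64 without ACSS2-HKO replicate 3 and were -1.09 and -1.33 without ACSS2-HKO replicate 1. Fgf21, a secreted hormone under PPARalpha control, read 2.94, 2.41 and 61.4 FPKM for ACSS2-flox against 9.23, 2.44 and 7.65 for ACSS2-HKO. Its log2 fold change was -0.49 ± 1.01, turned to 0.87 without ACSS2-flox replicate 3, and was -1.22 without ACSS2-flox replicate 2. Plin2, a lipid droplet coat gene that responds to PPARalpha, did not share the low value of ACSS2-HKO replicate 3 and read 149.8, 114 and 135 FPKM for ACSS2-flox against 145, 163 and 145 for ACSS2-HKO.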
